A study of Mus musculus with 6 samples.

Results

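The cells described here are sinusoidal endothelial cells of the mouse liver that carried transcripts of Lyve1 or Esm1 and none of 7 genes that mark the central or the portal side of the lobule. They were chosen by their own counts in all 6 libraries of the study. Barcodes entered with 300 genes or more, 500 UMIs (counted transcript molecules) or more, and no more than 30% mitochondrial UMIs. It passed an endothelial gate when at least 3 of Stab2, Clec4g, Gpr182, Oit3, Kdr and Dnase1l3 were detected and when Clec4f, Timd4, Cd79a, Reln and Epcam together had at most 1 UMI. From the gate, cells were selected with at least 2 UMIs of Lyve1 and Esm1 together and with no UMI of Wnt2, Kit, Cdh13, Efnb1, Efnb2, Adam23 or Dll4. This left 610 cells out of 12630 that passed the gate and 38697 cells in all. They are called the Lyve1 or Esm1 cells below. Zonal genes that did not choose them are described, but these cannot settle whether the name midzonal holds.

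All libraries came from livers of wild-type male mice, 8 to 10 weeks old at surgery, whose inferior vena cava had been partly ligated (pIVCL), which impedes the outflow of blood from the liver. After 2 weeks, osmotic pumps under the skin delivered either CWHM-12, which blocks the αV integrins, at 100 mg/kg/day, or its vehicle DMSO, for 4 weeks until the livers were collected. The 3 CWHM-12 and 3 DMSO libraries were each given as a sample from a mouse, with no mouse identifier, so the spread that p-values measure is that of these libraries and may be technical. No liver without pIVCL was among the groups compared here. The cells were a preparation set to 90% nonparenchymal cells and 10% hepatocytes.

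Sinusoidal endothelial cells line the capillaries of the liver lobule, are fenestrated, and clear waste proteins and small particles from the blood through scavenger receptors. They are zonated. Cells next to the central vein make Wnt ligands and Rspo3, which maintain the central program of hepatocytes, and cells next to the portal tract carry arterial genes such as Efnb2 and Dll4. Lyve1, a hyaluronan receptor, is high in the middle of the lobule, and Esm1, a proteoglycan secreted by endothelium that responds to VEGF, is made by subsets of endothelial cells.

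The CWHM-12 libraries held 31294555, 40382504 and 48100436 UMIs and the DMSO libraries 30836277, 28220477 and 44557538. CWHM-12 1, DMSO 1 and DMSO 2 carry the batch label 2024.6, and CWHM-12 2, CWHM-12 3 and DMSO 3 carry 2024.12. Libraries shared at most 5 of 10000 barcodes with each other, and no barcode of a selected cell occurred among the selected cells of another library. DMSO 2 stood apart for several endothelial genes in the gate cells as a whole. Gpr182, an atypical chemokine receptor, had 1506, 1511 and 1496 CPM (UMI counts scaled by library size and TMM factors) in CWHM-12 gate cells and 1848, 352 and 1331 CPM in DMSO gate cells. DMSO 2 is named at some, not all, of the results in which it lay apart from the other DMSO libraries.

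The cells numbered 45, 194 and 44 in CWHM-12 1 to 3 and 97, 98 and 132 in DMSO 1 to 3. Lyve1 chose nearly all of them. A Lyve1 UMI was present in 45, 193 and 43 cells of the CWHM-12 libraries and in 95, 97 and 131 cells of the DMSO libraries. Esm1 was detected in 12, 67 and 14 CWHM-12 cells and in 21, 45 and 45 DMSO cells, and at most 2 cells of a library carried Esm1 without Lyve1. At the edge of the selection, 10, 18 and 7 CWHM-12 cells and 19, 3 and 14 DMSO cells had exactly 2 UMIs of Lyve1 and Esm1 together. Just outside it, 10, 22 and 14 CWHM-12 cells and 14, 7 and 15 DMSO cells had 1 such UMI. Another 48, 373 and 126 CWHM-12 cells and 97, 141 and 145 DMSO cells met every other condition but had 1 UMI of the 7 zonal genes.

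A Lyve1 UMI also occurs in cells that should not express the gene. Among Cd79a-positive cells outside the gate, 7.69%, 8.57% and 12.5% had one in the CWHM-12 libraries, at a median of 3112.5, 1146 and 2058 UMIs a cell. In the DMSO libraries the shares were 8.05%, 5.08% and 10.5%, at a median of 2721, 1740.5 and 2507.5 UMIs. Clec4f-positive cells outside the gate had a Lyve1 UMI more often, in 23.5%, 36.7% and 21.7% of CWHM-12 cells at a median of 3232, 6745 and 9436 UMIs. In DMSO libraries it was 26.2%, 35.3% and 38.2%, at a median of 2921, 7805 and 8660.5 UMIs. Clec4f marks Kupffer cells, but 22.8%, 43.1% and 36.9% of this class in CWHM-12 libraries also had a UMI of Kdr, a gate gene. In DMSO libraries 23.6%, 33.2% and 33.3% had one. Whether the class holds Kupffer cells alone was not tested. Among the gate cells that were not selected, 93.7%, 86.1% and 72.8% had a Lyve1 UMI in the CWHM-12 libraries and 94.2%, 94.3% and 95.9% in the DMSO libraries. These shares were above those of the Cd79a-positive and the Clec4f-positive cells in every library.

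The selected cells were shallower than the rest of the gate. Their median was 1544, 2080.5 and 2770 UMIs a cell in CWHM-12 1 to 3 and 1063, 3319.5 and 1566.5 in DMSO 1 to 3. The other gate cells had medians of 6592, 2922 and 3996 UMIs in the CWHM-12 libraries and 5831, 4346.5 and 5204 UMIs in the DMSO libraries. Above 1000 UMIs, the share of gate cells that met the rule fell with depth, and below 1000 UMIs CWHM-12 1 had 16.2% and the other libraries with at least 20 such cells 16.1% to 38.9%. Between 1000 and 2000 UMIs it was 27.1%, 11.3% and 5.96% in the CWHM-12 libraries and 23.6%, 27.3% and 24.4% in the DMSO libraries. Between 4000 and 8000 UMIs it was 2.11%, 0.894% and 0.248% in the CWHM-12 libraries and 0.277%, 7.85% and 2.06% in the DMSO libraries. A cell with few UMIs is more likely to have none of the 7 zonal genes, so shares and the main levels were also computed after each cell was thinned at random to 1000 UMIs, with cells under 1000 UMIs left out. The rule was applied again to the thinned counts, so the cells chosen then differ from those chosen with all UMIs.

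**Figure D1:**
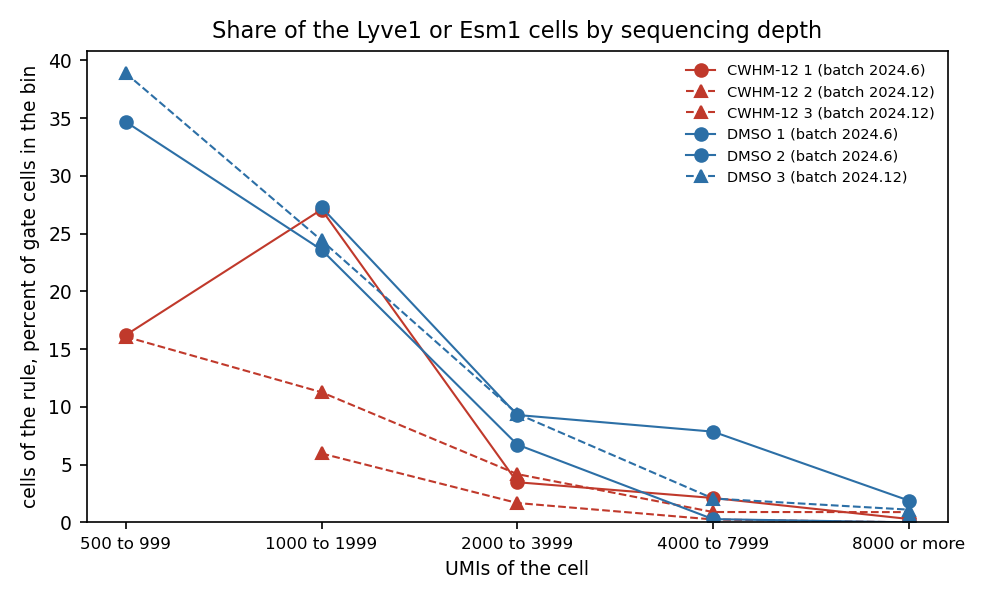
Cells that met the rule as a percent of the endothelial gate cells in 5 bins of UMIs per cell, with 1 line per library and bins under 20 gate cells left out. In every library the share above 4000 UMIs was lower than the share between 1000 and 2000 UMIs.

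Mitochondrial UMIs also differed between the libraries. The median was 16.2%, 7.61% and 8.53% in the selected cells of CWHM-12 1 to 3 and 16.9%, 10.7% and 9.83% in those of DMSO 1 to 3. CWHM-12 1 and DMSO 1, both of batch 2024.6, were high in each group. The other gate cells of these 2 libraries had medians of 7.82% in CWHM-12 1 and 8.86% in DMSO 1.

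The selected cells carried the defining transcripts of sinusoidal endothelium. Clec4g, a C-type lectin, was detected in 91.1%, 99.0% and 100% of them in CWHM-12 1 to 3 and in 76.3%, 94.9% and 91.7% in DMSO 1 to 3. Stab2, a scavenger receptor for hyaluronan, had 1054, 1381 and 1762 CPM in CWHM-12 cells and 998, 1025 and 1134 CPM in DMSO cells, where CPM in comparisons between cell classes are scaled by the sum of UMIs alone. Both genes were part of the gate. Outside the rule, Pecam1, an adhesion molecule of all endothelium, had 788, 938 and 753 CPM in CWHM-12 cells and 818, 822 and 724 CPM in DMSO cells. Cdh5, the cadherin of endothelial junctions, had 475, 704 and 705 CPM in CWHM-12 cells and 661, 568 and 559 CPM in DMSO cells. Stab1, a scavenger receptor related to Stab2, had 1187, 1267 and 1209 CPM in CWHM-12 cells and 1524, 986 and 1179 CPM in DMSO cells. These 3 genes were present in all 6 libraries and the treatment groups overlapped for each.

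Zonal genes that the rule did not use were compared between classes of gate cells. The comparison cells passed the same gate and formed 2 classes. Pericentral-type cells had at least 1 UMI of Wnt2, Kit or Cdh13 and none of the portal genes, 1065 in all. Periportal-type cells had the reverse, 5561 in all. Gate cells with UMIs of both sides were in neither class. They numbered 384, 1425 and 1802 in CWHM-12 1 to 3 and 560, 263 and 718 in DMSO 1 to 3, more than the pericentral type in each library. Since the classes were cut from the same counts, the levels are a description without a test. By the rule the Lyve1 or Esm1 cells had no UMI of the 7 zonal genes. Genes that vary with those 7 can therefore lie below their own side by construction. A middle position and a mix of central and portal cells with few UMIs cannot be told apart by these levels. Of 11 pericentral genes with enough UMIs, 10 were higher in pericentral-type than in periportal-type cells by their mean over libraries, and for 8 the mean of the Lyve1 or Esm1 cells lay between the 2 types. All 11 were lower in the Lyve1 or Esm1 cells than in pericentral-type cells in at least 5 of 6 libraries, but 4 of the 11 were above periportal-type cells in as many. Of 9 periportal genes, 7 were higher in periportal-type cells, and for 4 of the 9 the mean of the Lyve1 or Esm1 cells lay between. In at least 5 of 6 libraries, 7 of the 9 were below periportal-type cells and 3 were above pericentral-type cells.

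Rspo3, the R-spondin that amplifies Wnt signals around the central vein, had 114, 107 and 16.02 CPM in the Lyve1 or Esm1 cells of CWHM-12 1 to 3 and 135, 191 and 92.1 CPM in those of DMSO 1 to 3. Pericentral-type cells had 1382, 653 and 587 CPM in the CWHM-12 libraries and 1240, 831 and 976 CPM in the DMSO libraries, and periportal-type cells had 49.0, 21.8 and 5.68 CPM in CWHM-12 libraries and 42.2, 51.7 and 71.0 CPM in DMSO libraries. The Lyve1 or Esm1 cells were below the pericentral type and above the periportal type in 6 of 6 libraries. The same order held in 6 of 6 libraries for Selp, the P-selectin of venous endothelium, for Lfng, which modifies Notch, and for Ptgs1, the constitutive cyclooxygenase. Wnt9b, a central-vein Wnt, had 17 UMIs in all Lyve1 or Esm1 cells together and was at 0 in 2 CWHM-12 libraries, while pericentral-type cells had 59.8 to 186 CPM.

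On the portal side, Ntn4, a basement membrane netrin, had 1016, 825 and 737 CPM in the Lyve1 or Esm1 cells of CWHM-12 libraries and 998, 1455 and 890 CPM in those of DMSO libraries. Periportal-type cells had 2444, 2011 and 1907 CPM in CWHM-12 libraries and 2290, 2842 and 1662 CPM in DMSO libraries, and pericentral-type cells had 691, 477 and 429 CPM in CWHM-12 libraries and 853, 1007 and 881 CPM in DMSO libraries. The order was kept in 6 of 6 libraries. Msr1, a scavenger receptor, had 9.49, 157 and 152 CPM in CWHM-12 cells and 120, 138 and 54.01 CPM in DMSO cells, below periportal-type cells in 6 of 6 libraries and above pericentral-type cells in 5, the exception being CWHM-12 1. Ltbp4, which binds latent TGF-β, was below periportal-type cells in 6 of 6 libraries and above pericentral-type cells in 5, the exception being DMSO 2. Jam2, a junction protein on the periportal list, went against its list and was higher in pericentral-type than in periportal-type cells in 5 of 6 libraries.

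**Figure D2:**
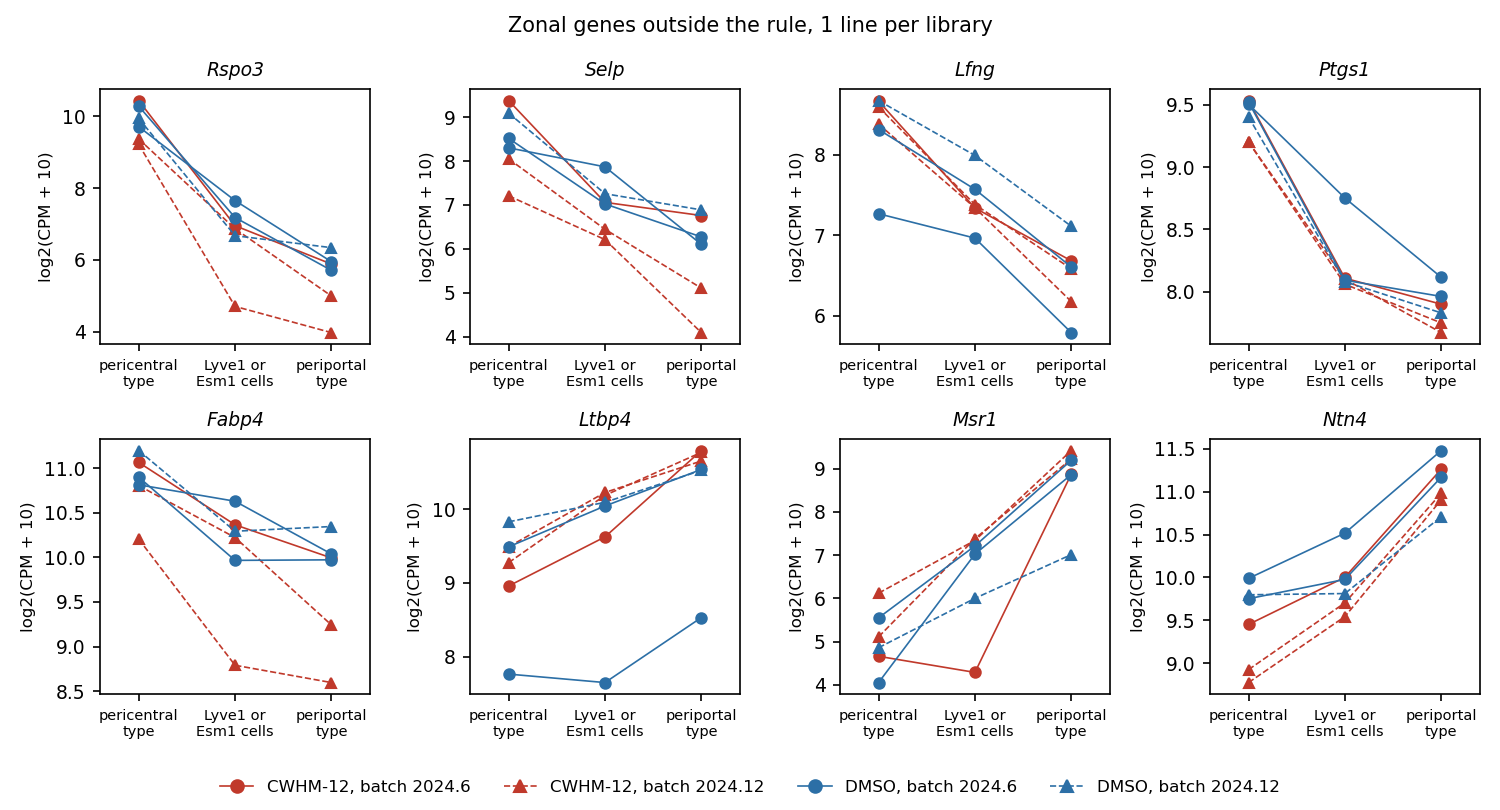
Level of 8 zonal genes outside the rule, as log2(CPM + 10), in pericentral-type cells, Lyve1 or Esm1 cells and periportal-type cells, with 1 line per library. The 8 were picked from 11 pericentral and 9 periportal genes. Gja4, Plxnc1, Jam2 and Cd9, for which the Lyve1 or Esm1 cells lay between in 0 libraries, are among those not shown. Rspo3, Selp, Lfng and Ptgs1 step down and Ntn4 steps up from left to right in all 6 libraries. Msr1 and Ltbp4 have 1 exception each, and Fabp4 steps down in 4 of 6 libraries.

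After thinning to 1000 UMIs, 7 of 10 pericentral genes and 5 of 8 periportal genes had a mean between the 2 types. Rspo3 then lay between in 5 of 6 libraries and Ntn4 in 6 of 6. The levels of Esm1 and Lyve1 that follow are without thinning, with all UMIs. Esm1 had 171, 357 and 224 CPM in the Lyve1 or Esm1 cells of CWHM-12 libraries and 398, 412 and 356 CPM in those of DMSO libraries, although it helped to choose them. Periportal-type cells had 687, 436 and 160 CPM in CWHM-12 libraries and 564, 703 and 647 CPM in DMSO libraries. Esm1 was thus higher in periportal-type cells in 5 of 6 libraries. Lyve1 had 3693, 3652 and 2259 CPM in CWHM-12 cells and 5277, 6039 and 5299 CPM in DMSO cells of the rule. Periportal-type cells had 5081, 2557 and 1270 CPM in CWHM-12 libraries and 4659, 4714 and 5860 CPM in DMSO libraries, so that Lyve1 was lower in the selected cells in CWHM-12 1 and DMSO 3, although it chose them.

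Among 6834 genes outside the rule with at least 20 CPM in the Lyve1 or Esm1 cells, the 15 with the smallest ratio to the other gate cells included several zonal and vessel genes. Ly6a, the surface antigen Sca-1, had 66.4, 220 and 176 CPM in CWHM-12 cells and 75.1, 180 and 66.7 CPM in DMSO cells, against 331, 579 and 671 CPM in the other gate cells of CWHM-12 libraries and 346, 504 and 158 CPM in those of DMSO libraries. It was lower in 6 of 6 libraries, with a median log2 ratio of -1.65, and so were Msr1 (-1.30), Jam2 (-1.27), the lymphangiogenic factor Vegfc (-1.18), the connexin Gja4 (-1.16) and Cyp26b1 (-0.97), which degrades retinoic acid. After thinning the ratios were nearer to 0, at -0.96 for Ly6a, -1.20 for Msr1, -0.80 for Jam2, -0.83 for Gja4, -0.88 for Cyp26b1 and -0.46 for Vegfc, each lower in 6 of 6 libraries. Cyp26b1 itself ranged from 20.6 CPM in DMSO 2 to 817 CPM in CWHM-12 3.

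The 15 largest ratios with all UMIs were led by hepatocyte enzymes. Ass1 of the urea cycle had a median log2 ratio of 1.36 and Pck1 of gluconeogenesis 1.34, each higher in 4 of 6 libraries. A list of 20 hepatocyte markers summed to 12483, 1354 and 7241 CPM in the Lyve1 or Esm1 cells of CWHM-12 1 to 3 and to 19929, 2341 and 5055 CPM in those of DMSO 1 to 3. In the other gate cells the sums were 2659, 4048 and 9265 CPM in the CWHM-12 libraries and 4046, 5687 and 1738 CPM in the DMSO libraries. The sum was higher in the selected cells of CWHM-12 1, DMSO 1 and DMSO 3, the libraries with the lowest medians of UMIs in those cells.

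After thinning, no hepatocyte enzyme was among the 15 largest ratios, and genes of cell division took their place. These values are of the cells that met the rule after thinning. Top2a, the topoisomerase of dividing cells, had 78.7, 64.1 and 65.4 CPM in CWHM-12 cells and 46.3, 61.0 and 59.3 CPM in DMSO cells. The other gate cells had 1.41, 28.5 and 8.70 CPM in CWHM-12 libraries and 24.0, 17.8 and 16.8 CPM in DMSO libraries. Prc1, a protein of the dividing spindle, Mki67, a proliferation marker, and Stmn1, which destabilises microtubules, were also higher than in the other gate cells in 6 of 6 libraries. Against pericentral-type cells, Prc1 was higher in 5 of 6 libraries and Mki67 and Stmn1 in 4 of 6. These are few molecules: Top2a rested on 164 UMIs in the thinned cells that met the rule, and against pericentral-type cells it was higher in 4 of 6 libraries. Before thinning, the Lyve1 or Esm1 cells had 0, 41 and 1 Top2a UMIs in CWHM-12 libraries and 5, 8 and 86 in DMSO libraries. The largest number in 1 cell was 48. Odc1, which makes polyamines, had 205, 170 and 106 CPM in CWHM-12 cells and 229, 194 and 237 CPM in DMSO cells, against 140, 84.5 and 45.3 CPM in the other gate cells of CWHM-12 libraries and 98.0, 92.4 and 116 CPM in those of DMSO libraries. The median log2 ratio of Odc1 was 0.98 over the other gate cells and 0.23 over pericentral-type cells. Plau, the urokinase protease, was higher than in the other gate cells in 6 of 6 libraries and close to the pericentral type, with median log2 ratios of 0.62 and -0.18.

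The selected cells were also split into those with and without an Esm1 UMI. Cxcl9, a chemokine induced by interferon-γ, had 1499, 906 and 1187 CPM in Esm1-positive cells of CWHM-12 libraries and 1290, 1749 and 1155 CPM in those of DMSO libraries. Cells without Esm1 had 285, 646 and 290 CPM in CWHM-12 libraries and 447, 703 and 468 CPM in DMSO libraries. Cxcl9 was higher with Esm1 in 6 of 6 libraries, with all UMIs and after thinning, and so was Angpt2, an angiopoietin that opposes vessel stability. Rspo3 was lower with Esm1 in 5 of 6 libraries, with a median log2 ratio of -1.40. Fmo2, a flavin monooxygenase, was lower in 6 of 6, at -0.97. Cells with a UMI of a gene differ in depth from those without, so these values are a description.

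Transcripts of other cell types than hepatocytes differed widely between libraries. The 16 Kupffer cell and macrophage markers summed to 1225, 936 and 521 CPM in CWHM-12 cells and to 1254, 695 and 2348 CPM in DMSO cells, with 14 of 16 genes detected in each library. The 14 T and NK cell markers summed to 921, 97.7 and 0 CPM in CWHM-12 cells and to 52.5, 174 and 369 CPM in DMSO cells. The 10 neutrophil and monocyte markers summed to 370, 59.1 and 0 CPM in CWHM-12 cells and to 82.6, 130 and 750 CPM in DMSO cells. DMSO 3 was highest for the macrophage and monocyte lists. The 9 erythroid markers summed to 18548, 61.3 and 24.0 CPM in CWHM-12 cells and to 323, 47.1 and 105 CPM in DMSO cells. Of the 610 Hba-a1 UMIs in CWHM-12 1, 608 came from 1 cell. The stellate cell markers ranged from 216 to 617 CPM in CWHM-12 cells and from 121 to 646 CPM in DMSO cells. The B cell markers had at most 28.5 CPM in CWHM-12 cells and ranged from 26.5 to 216 CPM in DMSO cells. Cholangiocyte and mesothelial markers were low in both groups, with 113.6 to 304 CPM for cholangiocytes in CWHM-12 cells and 60.4 to 165 CPM in DMSO cells, and 54.5 to 161 CPM for mesothelial cells in CWHM-12 cells and 105 to 233 CPM in DMSO cells. Platelet markers had at most 22.7 CPM in CWHM-12 cells and 52.5 CPM in DMSO cells. The lymphatic list, which holds Lyve1, ranged from 3548 to 4946 CPM in CWHM-12 cells and from 6245 to 6967 CPM in DMSO cells. The part of other cell types in the results was not tested.

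The Lyve1 or Esm1 cells made up a smaller share of the endothelial gate in CWHM-12 libraries than in DMSO libraries. They were 4.72%, 4.90% and 1.22% of gate cells in CWHM-12 1 to 3, with Wilson 95% intervals of 3.55 to 6.26%, 4.27 to 5.62% and 0.907 to 1.63%. They were 6.35%, 10.2% and 8.18% in DMSO 1 to 3, with intervals of 5.23 to 7.68%, 8.45 to 12.3% and 6.94 to 9.62%, and these intervals cover counting error only. The groups did not overlap. The means were 3.61 ± 2.08% in CWHM-12 and 8.24 ± 1.93% in DMSO (SD, n = 3 each), a difference of -4.63 percentage points, and the two-sided exact permutation test gave p = 0.1, the smallest value that 3 against 3 libraries can give. The difference was -3.56 points within batch 2024.6 and -5.12 points within batch 2024.12, and within 2024.6 it was -1.63 points without DMSO 2. Fewer cells of this kind and fewer Lyve1 transcripts per cell cannot be told apart by this share.

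After thinning to 1000 UMIs the cells of the rule were 26.4%, 19.0% and 8.78% of gate cells in CWHM-12 libraries and 29.1%, 40.1% and 33.5% in DMSO libraries. The groups again did not overlap, the difference of the means was -16.2 points, and p was 0.1 by the same exact permutation test. Within batches it was -8.19 points in 2024.6 and -19.7 points in 2024.12, and within 2024.6 it was -2.67 points without DMSO 2. With at least 500 genes, 1000 UMIs and at most 15% mitochondrial UMIs the shares were 2.18%, 4.72% and 1.14% in CWHM-12 and 1.86%, 9.67% and 5.33% in DMSO, and the groups overlapped.

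The 2 conditions of the rule contributed differently. Thinned gate cells with at least 2 UMIs of Lyve1 and Esm1 were 81.0%, 60.7% and 33.1% in CWHM-12 libraries and 81.6%, 83.0% and 86.3% in DMSO libraries. CWHM-12 1 was within 1 percentage point of DMSO 1, and CWHM-12 2 and 3, both of batch 2024.12, were low. Thinned gate cells with no UMI of the 7 zonal genes were 32.4%, 28.8% and 25.3% in CWHM-12 libraries and 35.0%, 47.1% and 38.8% in DMSO libraries. Cells with a UMI of the portal genes were 58.1%, 58.1% and 60.6% in CWHM-12 libraries and 56.7%, 42.9% and 44.9% in DMSO libraries, a difference of 10.8 points without overlap, with DMSO 1 close to the CWHM-12 libraries. Cells with a UMI of the central genes were 16.8%, 23.1% and 27.1% in CWHM-12 libraries and 14.6%, 13.7% and 24.5% in DMSO libraries, and the groups overlapped.

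**Figure D3:**
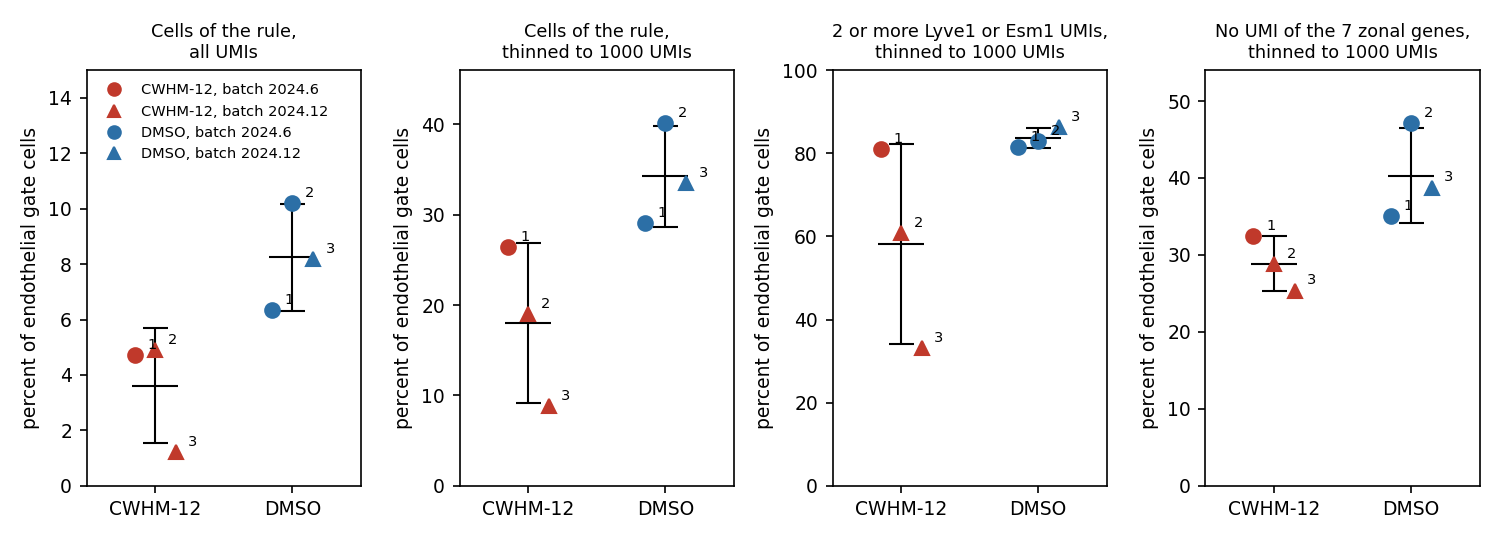
Percent of endothelial gate cells in each library that met the whole rule with all UMIs, met it after thinning to 1000 UMIs, had at least 2 Lyve1 or Esm1 UMIs after thinning, and had no UMI of the 7 zonal genes after thinning. Points are libraries, numbered, and bars are the mean ± SD of 3 libraries, and CWHM-12 3 is lowest in all 4 panels.

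Lyve1 itself was lower over the whole gate in the same 2 libraries. It had 4708, 2630 and 1316 CPM in CWHM-12 gate cells and 4445, 4724 and 5981 CPM in DMSO gate cells, a log2 fold change of -0.78 ± 0.43 (SE) that did not pass (adjusted p = 0.988, edgeR). Esm1 had 539, 286 and 90.4 CPM in CWHM-12 gate cells and 441, 501 and 429 CPM in DMSO gate cells. CWHM-12 1 lay within the DMSO range for Lyve1 and above it for Esm1, and CWHM-12 2 and 3 lay below it for both. These gate-wide sums were added after the data had been seen.

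No gene passed the treatment comparison within the Lyve1 or Esm1 cells. UMIs were summed over the cells of each library, and edgeR's quasi-likelihood test was fitted to the sums with a batch term. The sums held 105346, 440248 and 124849 UMIs in CWHM-12 and 133225, 339601 and 314747 UMIs in DMSO. Of 4238 genes tested, 0 passed an adjusted p of 0.05 (0% called), 88 had an unadjusted p under 0.05, and DESeq2 and limma voom also called 0. The smallest adjusted p was 0.998. All 3 CWHM-12 libraries were above all 3 DMSO libraries for 208 genes (4.91%) and below them for 201 genes (4.74%). The values below are therefore of genes that did not pass, the 8 of smallest p in each direction with a mean of at least 20 CPM, on TMM-scaled CPM.

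Bmp4, a ligand that signals through BMP receptors, had 11.9, 12.4 and 0 CPM in CWHM-12 cells and 112, 70.5 and 99.8 CPM in DMSO cells. The groups did not overlap, and the log2 fold change was -3.24 ± 0.70 (SE). It was found in 1, 2 and 0 cells of CWHM-12 libraries and in 7, 7 and 11 cells of DMSO libraries. Fmo2 had 23.7, 69.6 and 18.0 CPM in CWHM-12 cells and 197, 337 and 210 CPM in DMSO cells, without overlap, at -2.45 ± 0.53. Lepr, the leptin receptor, had 119, 152 and 108 CPM in CWHM-12 cells and 440, 301 and 338 CPM in DMSO cells, without overlap, at -1.46 ± 0.34. Lepr was the gene of these 3 found in most cells, with 9, 43 and 9 CWHM-12 cells and 28, 49 and 55 DMSO cells. All 3 had the same sign within each batch, with differences in mean log2 CPM of -2.22, -3.02 and -1.55 in 2024.6 for Bmp4, Fmo2 and Lepr.

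The other 5 genes of negative sign differed in the number of cells that carried them. Cybb, the catalytic subunit of the phagocyte oxidase, had 35.6, 24.8 and 8.99 CPM in CWHM-12 cells and 178, 80.1 and 189 CPM in DMSO cells, at -2.73 ± 0.57, and 28 of its 111 UMIs came from 1 cell. Cybb was found in 2, 5 and 1 CWHM-12 cells and in 10, 4 and 8 DMSO cells. Stmn1 had 11.9, 57.1 and 27.0 CPM in CWHM-12 cells and 56.2, 32.0 and 207 CPM in DMSO cells, at -2.08 ± 0.52, with overlap and DMSO 3 high. The chromatin protein gene Hmgb2 had 119, 206 and 180 CPM in CWHM-12 cells and 150, 173 and 666 CPM in DMSO cells, at -1.28 ± 0.36, again with overlap and DMSO 3 high, where 1 cell gave 79 UMIs. Setd5, a chromatin regulator, had 59.3, 72.0 and 53.95 CPM in CWHM-12 cells and 150, 202 and 171 CPM in DMSO cells, at -1.46 ± 0.37, and was found in 4, 27 and 4 CWHM-12 cells and in 14, 38 and 34 DMSO cells. Usp1, a deubiquitinase of DNA repair, had 11.9, 72.0 and 62.9 CPM in CWHM-12 cells and 93.7, 80.1 and 160 CPM in DMSO cells, at -1.56 ± 0.46. Neither Setd5 nor Usp1 overlapped between the groups.

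Among genes with a positive fold change, Cxcl10, a chemokine induced by interferon, had 522, 353 and 216 CPM in CWHM-12 cells and 244, 237 and 78.4 CPM in DMSO cells. It was found in 5, 57 and 12 CWHM-12 cells and in 12, 21 and 6 DMSO cells, with up to 34 UMIs in 1 cell. The groups overlapped at CWHM-12 3, and the log2 fold change was 1.48 ± 0.35. Itga9, an integrin subunit that pairs with β1 and not an αV integrin, had 285, 542 and 504 CPM in CWHM-12 cells and 225, 183 and 196 CPM in DMSO cells, without overlap, at 0.99 ± 0.34. Lpin1, a phosphatidate phosphatase, had 261, 124 and 180 CPM in CWHM-12 cells and 150, 76.9 and 39.2 CPM in DMSO cells, at 1.57 ± 0.42 with overlap. Cyp3a25, a cytochrome P450 of hepatocytes, had 427, 14.9 and 62.9 CPM in CWHM-12 cells and 74.9, 35.3 and 17.8 CPM in DMSO cells, at 2.29 ± 0.68, and CWHM-12 1 alone was far above the rest. The other 4 were Mprip at 1.32, Ubn1 at 1.07, ENSMUSG00000120732 at 1.96 and Ppp6r3 at 1.25, and none of the 4 overlapped between the groups.

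**Figure D4:**
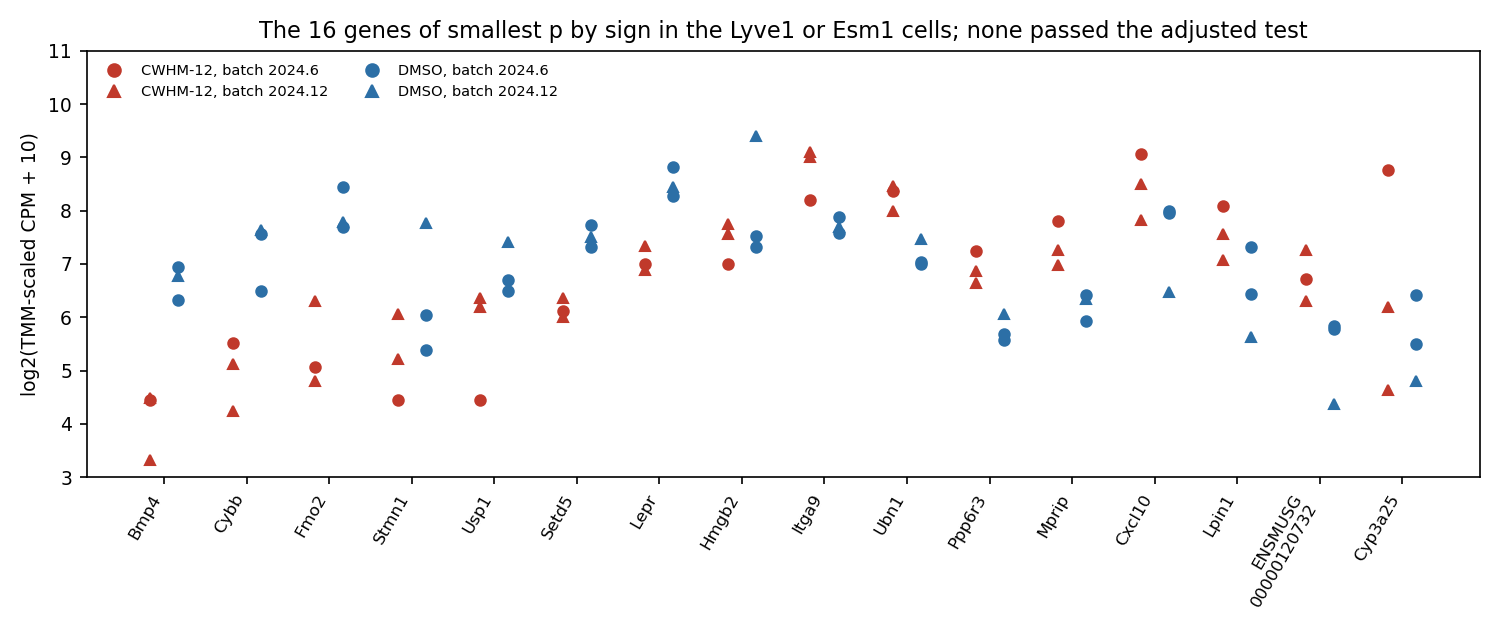
TMM-scaled CPM, as log2(CPM + 10), of the 16 genes of smallest p in the Lyve1 or Esm1 cells, 8 of each sign, with CWHM-12 libraries left of DMSO libraries for each gene. The groups do not overlap for Bmp4, Cybb, Fmo2, Usp1, Setd5 and Lepr among genes of negative sign and for Itga9, Ubn1, Ppp6r3, Mprip and ENSMUSG00000120732 among those of positive sign, and no gene passed the adjusted test.

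The same sums were formed for cells chosen after thinning, which are 254, 764 and 321 cells in CWHM-12 libraries and 410, 377 and 540 in DMSO libraries, with all their UMIs counted. Of 10788 genes tested, 0 passed with edgeR and 186 had an unadjusted p under 0.05. In this set 498 genes had all CWHM-12 libraries above all DMSO libraries (4.62%) and 614 had them below (5.69%). The fold changes of the genes above kept their sign and were smaller in size in this set, where Fmo2 and Cybb overlapped between the groups. They were -1.21 for Bmp4, -1.43 for Fmo2, -0.93 for Lepr, -0.44 for Cybb, 0.77 for Cxcl10 and 0.47 for Itga9. Others came close to 0, at -0.10 for Usp1, -0.19 for Stmn1, -0.29 for Hmgb2, 0.16 for Ubn1 and 0.19 for Mprip. Mki67 had 29.4, 23.4 and 23.5 CPM in CWHM-12 cells and 44.0, 48.6 and 51.2 CPM in DMSO cells of this set, without overlap, at -0.89 ± 0.21 (adjusted p = 0.999, edgeR). Of 20 cell cycle genes tested there, 5 had a positive and 15 a negative fold change, and 4 lay without overlap below DMSO, beside 5.69% of all genes tested, the others being Mcm5, Tpx2 and Tyms. The median was -0.17, beside 0.02 for all genes tested.

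The gene lists are described by counts and medians beside all genes tested, where 2178 fold changes were positive and 2060 negative and the median was 0.01. All 22 genes of endothelial identity and scavenging were tested, a list that holds 6 genes of the gate and Lyve1. The fold changes were positive for 13 and negative for 9, with a median of 0.10. Without overlap, 4 were above DMSO (Dnase1l3, Plxnc1, Scarb2 and Stab2) and 2 below (Lyve1 and Gata4), beside 4.91% and 4.74% of all genes tested. Dnase1l3, a DNase that clears chromatin, had 2609, 4082 and 5611 CPM in CWHM-12 cells and 2061, 1327 and 2180 CPM in DMSO cells, at 0.89 ± 0.31. Scarb2, a lysosomal membrane receptor, had 486, 581 and 926 CPM in CWHM-12 cells and 422, 317 and 391.9 CPM in DMSO cells, at 0.68 ± 0.33. Lyve1 had 4613, 3995 and 2536 CPM in CWHM-12 cells and 6586, 6573 and 5943 CPM in DMSO cells, at -0.69 ± 0.28. Lyve1 chose the cells, so its value here is a description. Of 21 endocytosis and lysosome genes, 16 were positive and 5 negative, with a median of 0.27.

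Genes of vessel flow and of the fenestrated wall had fold changes of both signs. Of 16 flow and shear genes, 7 were positive and 9 negative, with a median of -0.21 and of 0.13 in the cells chosen after thinning. Klf2, a transcription factor induced by shear, had 130, 455 and 1061 CPM in CWHM-12 cells and 141, 106 and 435 CPM in DMSO cells, with overlap at CWHM-12 1, and the log2 fold change was 0.52 ± 0.43. In the cells chosen after thinning it was 1.05 and the groups did not overlap. Nos3, the endothelial nitric oxide synthase, had 59.3, 64.6 and 62.9 CPM in CWHM-12 cells and 131, 86.5 and 78.4 CPM in DMSO cells, at -0.50 ± 0.43 without overlap. After thinning its fold change was 0.09. Mef2c, a transcription factor downstream of shear, had 261, 380 and 306 CPM in CWHM-12 cells and 440, 481 and 417 CPM in DMSO cells, at -0.52 ± 0.31, without overlap in both sets. Of 13 genes of caveolae, fenestrae and nitric oxide, 6 were positive and 7 negative. Plvap, the protein of fenestral diaphragms, had 913, 566 and 288 CPM in CWHM-12 cells and 1209, 756 and 930 CPM in DMSO cells and overlapped, at -0.61 ± 0.37.

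The αV subunit was barely detected. Itgav had 20 UMIs in all Lyve1 or Esm1 cells together and was not tested, with 0, 13.6 and 8.01 CPM in CWHM-12 cells and 15.01, 8.83 and 25.4 CPM in DMSO cells, CPM here without TMM scaling. Over the whole gate it had 15.9, 13.9 and 17.2 CPM in CWHM-12 cells and 14.9, 17.2 and 14.7 CPM in DMSO cells, TMM-scaled. Of its β partners, Itgb1 had 676, 879 and 773 CPM in CWHM-12 cells and 862, 1070 and 723 CPM in DMSO cells and overlapped, at a log2 fold change of -0.15 ± 0.31. Itgb3 had 35.6, 104 and 126 CPM in CWHM-12 cells and 65.6, 64.1 and 99.8 CPM in DMSO cells and overlapped, at -0.15 ± 0.44. Over the whole gate Itgb3 had 95.3, 93.4 and 79.9 CPM in CWHM-12 cells and 77.6, 72.0 and 75.02 CPM in DMSO cells, without overlap, at 0.28 ± 0.14, which did not pass. Itgb5 had 10 UMIs and Itgb8 had 2 UMIs in all Lyve1 or Esm1 cells. Of 11 integrin genes tested, 4 were positive and 7 negative, with a median of -0.11. Itga6, a laminin receptor subunit, had 71.2, 102 and 80.9 CPM in CWHM-12 cells and 112, 147 and 110 CPM in DMSO cells, at -0.50 ± 0.39 without overlap.

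Genes of TGF-β and BMP signalling had fold changes of both signs. Of 12 TGF-β genes tested, 8 were positive and 4 negative, with a median of 0.09. In the cells chosen after thinning the balance was reversed, with 3 positive and 15 negative of 18 and a median of -0.07. Lrrc32, which presents latent TGF-β at the cell surface, had 806, 912 and 1115 CPM in CWHM-12 cells and 487, 125 and 638 CPM in DMSO cells, at 1.04 ± 0.46 without overlap, and DMSO 2 was the lowest. Of 13 BMP genes, 4 were positive and 9 negative, with a median of -0.32 and of 0.03 in the cells chosen after thinning. Besides Bmp4, Smad5, a BMP signal transducer, lay without overlap below DMSO, with 71.2, 59.6 and 53.95 CPM in CWHM-12 cells and 122, 141 and 81.9 CPM in DMSO cells. Id3, an inhibitor of differentiation induced by BMP, lay above, with 486, 487 and 495 CPM in CWHM-12 cells and 328, 125 and 452 CPM in DMSO cells, DMSO 2 being the lowest. Bmp2, a ligand that sinusoidal cells send to hepatocytes in the control of hepcidin, had 1399, 1893 and 2590 CPM in CWHM-12 cells and 1368, 2099 and 1194 CPM in DMSO cells and overlapped.

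Among 15 matrix genes, 8 were positive and 7 negative, and the median was 0.01. Fbln2, a fibulin of vessel walls, had 0, 84.5 and 0 CPM in CWHM-12 cells and 581, 256 and 103 CPM in DMSO cells, without overlap, at -2.24 ± 1.05. In the cells chosen after thinning Fbln2 had 60.02, 93.9 and 14.0 CPM in CWHM-12 cells and 187, 139 and 177 CPM in DMSO cells. There 4 of 28 matrix genes lay below DMSO without overlap, beside 5.69% of all genes tested, the others being Fbln5, Col6a3 and the basement membrane gene Nid1. Fbln2 and Fbln5 are also on the list of large vessel endothelium, which had 7, 11 and 5 of 16 genes detected in CWHM-12 cells and 10, 9 and 11 in DMSO cells. That list summed to 1300, 1567 and 1722 CPM in CWHM-12 cells and to 2319, 1051 and 1512 CPM in DMSO cells. Of 12 genes of capillarization, the loss of the sinusoidal phenotype, 7 were positive and 5 negative, with a median of 0.06.

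The zonal lists outside the rule were mostly too low to test. Of 14 pericentral genes 6 were tested, 1 positive and 5 negative, with a median of -0.28, and of 14 periportal genes 7 were tested, 3 positive and 4 negative, with a median of -0.05. In the cells chosen after thinning, where a gene of the rule can have UMIs, 14 pericentral genes had 6 positive and 8 negative and 13 periportal genes had 11 positive and 2 negative fold changes, with medians of -0.20 and 0.29. Fabp4, a fatty acid binding protein higher on the central side, had 1154, 1086 and 591 CPM in CWHM-12 cells and 1325, 1312 and 1647 CPM in DMSO cells of that set, at -0.58 ± 0.29 without overlap. Ltbp4 had 1175, 1081 and 1407 CPM in CWHM-12 cells and 1011, 255 and 1001 CPM in DMSO cells, at 0.60 ± 0.48 without overlap, with DMSO 2 low.

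Of 13 adhesion and junction genes, 9 were positive and 4 negative. Vcam1, a leukocyte adhesion molecule, had 439, 320 and 270 CPM in CWHM-12 cells and 206, 183 and 200 CPM in DMSO cells, at 0.87 ± 0.30 without overlap. In the cells chosen after thinning the fold change of Vcam1 was 0.15, and the list had 7 positive and 8 negative of 15. Of 9 chemokine and cytokine genes, 4 were positive and 5 negative, and Cxcl9 lay below DMSO, with 712, 810 and 665 CPM in CWHM-12 cells and 815, 1308 and 830 CPM in DMSO cells. Cxcl10 and Cxcl9 thus had fold changes of opposite sign, 1.48 and -0.37. Of 14 interferon genes, 12 were positive and 2 negative, with a median of 0.22 and of 0.04 after thinning, where 12 of 20 were positive.

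Genes of the immediate early and glucocorticoid responses had mostly positive fold changes, none of which passed. Of 16 immediate early and dissociation genes, 12 were positive and 4 negative, with a median of 0.18, and in the cells chosen after thinning 21 of 23 were positive, with a median of 0.35. Socs3, an inhibitor of cytokine signalling, had 94.9, 109 and 234 CPM in CWHM-12 cells and 28.1, 48.1 and 60.6 CPM in DMSO cells, at 1.33 ± 0.48 without overlap. Junb had 142, 152 and 207 CPM in CWHM-12 cells and 46.8, 76.9 and 132 CPM in DMSO cells, without overlap, at 0.70 ± 0.38. These genes respond to tissue dissociation as well as to signals in the animal, and the part of dissociation was not tested. Of 11 genes that respond to glucocorticoids, 10 were positive and 1 negative, with a median of 0.24 and of 0.42 after thinning, where 13 of 14 were positive. The metallothionein Mt1 had 451, 683 and 845 CPM in CWHM-12 cells and 290, 131 and 663 CPM in DMSO cells and overlapped, at 0.63 ± 0.37.

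The remaining lists were balanced or small. Angiopoietin and VEGF genes had 8 positive and 5 negative of 13, Notch 4 and 5 of 9, guidance 6 and 8 of 14, coagulation 5 and 5 of 10, YAP and Hippo 6 and 9 of 15, and lipid handling 4 and 5 of 9. Ephb4, the venous receptor for ephrin B2, had 249, 283 and 315 CPM in CWHM-12 cells and 534, 478 and 481 CPM in DMSO cells, without overlap, at -0.84 ± 0.29. In the cells chosen after thinning Ephb4 was at -0.41, again without overlap, and guidance had 12 positive and 5 negative of 17. Antigen presentation had 4 positive and 7 negative of 11, complement and scavenged proteins 2 and 7 of 9, the unfolded protein response 6 and 5 of 11, NF-kB 3 and 2 of 5, and genes of angiocrine signals to hepatocytes 3 and 2 of 5. After thinning, antigen presentation had 10 positive and 6 negative of 16. Complement and scavenged proteins had 9 and 4 of 13 there. Of the remaining lists, Calr, a chaperone of the endoplasmic reticulum, lay below DMSO in both sets, with 901, 517 and 567 CPM in CWHM-12 cells and 1368, 904 and 909 CPM in DMSO cells.

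**Figure D5:**
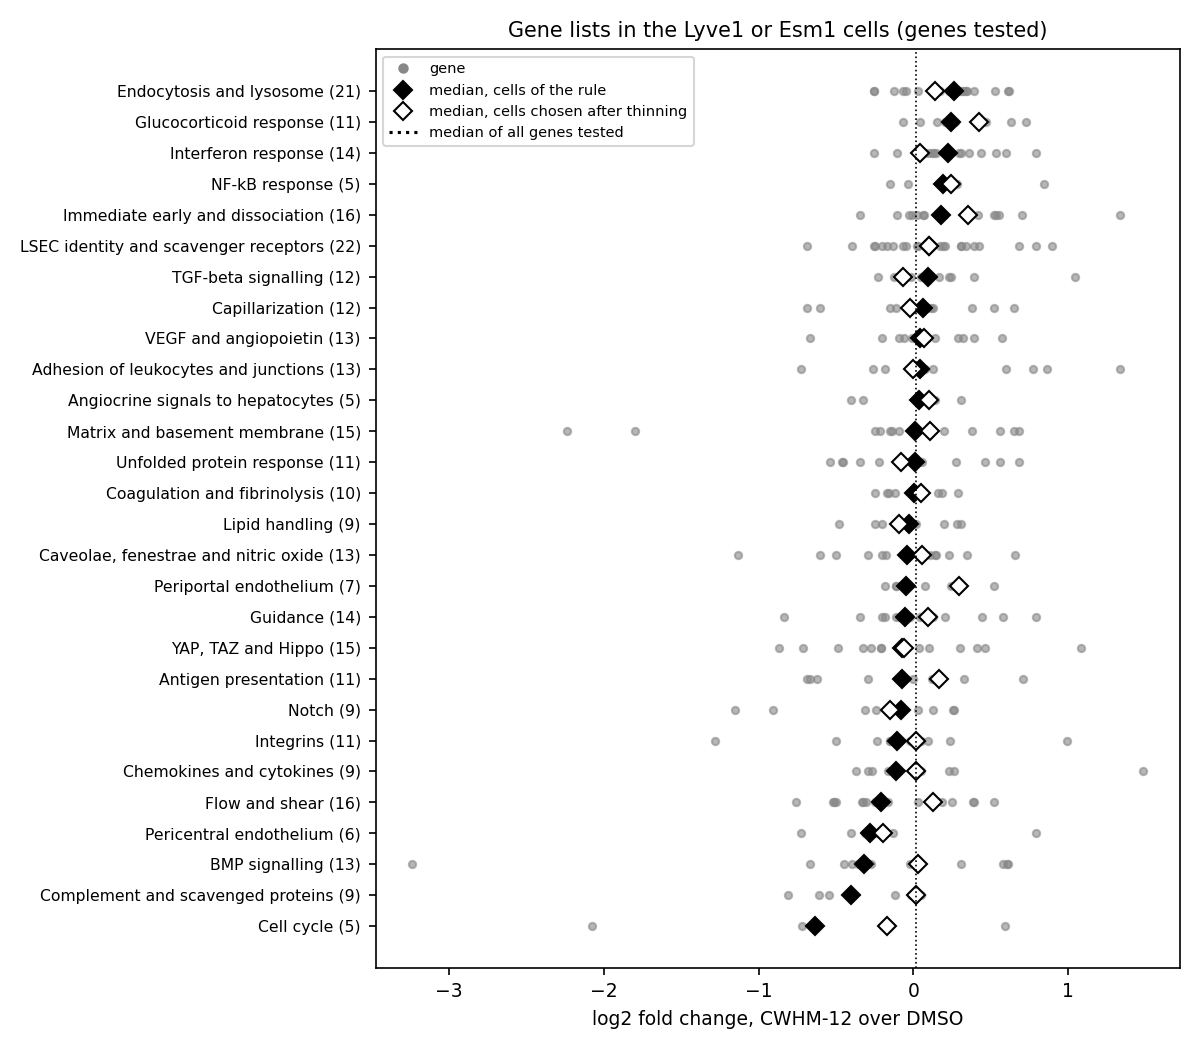
Log2 fold changes, CWHM-12 over DMSO, of the genes of 28 lists with at least 5 genes tested in the Lyve1 or Esm1 cells, with the number tested in brackets. Grey points are genes, filled diamonds the list medians, open diamonds the medians in the cells chosen after thinning, and the dotted line the median of all genes tested. Apart from the 5 cell cycle genes at -0.64, the list medians lie between -0.40 and 0.42.

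Whether the response differed from that of the other gate cells was tested by the interaction of treatment with cell class, in a fit with 1 term for each library. Of 11353 genes, 0 passed an adjusted p of 0.05 with edgeR (0% called) and 279 had an unadjusted p under 0.05. The 5 of smallest p were Hba-a1, Plac8, Trbc1, Dusp2 and Top2a, and each had many of its UMIs in a single cell. Hba-a1, a haemoglobin chain, had a log2 difference of 3.56 ± 0.68, Lyve1 or Esm1 cells minus other gate cells, and 608 of its UMIs were in 1 cell. Plac8, of leukocytes, was at -3.30 ± 0.67, Trbc1, a T cell receptor chain, at -7.23 ± 1.60, the phosphatase Dusp2 at -3.44 ± 0.80 and Top2a at -2.41 ± 0.56. The largest number of UMIs in 1 cell was 23 for Plac8, 17 for Trbc1, 28 for Dusp2 and 48 for Top2a. Trbc1 had 0, 2 and 0 UMIs in CWHM-12 cells and 1, 10 and 22 in DMSO cells. In the other gate cells of the same libraries the fold change was -1.49 for Bmp4, -1.50 for Fmo2, -1.10 for Lepr and -0.43 for Cybb, and 0.46 for both Cxcl10 and Itga9. For Usp1, at -1.56 in the Lyve1 or Esm1 cells, it was 0.01. Leaving out 1 library ended the count of 0. Without CWHM-12 1, 3 genes passed with a positive and 84 with a negative difference, without DMSO 2 it was 6 and 63, and without DMSO 3 it was 37 and 7, many of them hepatocyte, haemoglobin or leukocyte transcripts such as Alb, Hba-a1 and Cd52.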

How the data were processed

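Single-cell RNA-seq was made with BD Rhapsody, as 3 CWHM-12 and 3 DMSO libraries. The authors deposited 1 matrix of raw UMI counts per library with 10000 barcodes each, and the submitters' processing notes name GRCm39 as the build. Aligner and cell caller: not given in the sources used here. Members and gene lists were chosen with earlier results of these data known. Cells were kept with at least 300 genes, 500 UMIs and at most 30% mitochondrial UMIs. No doublet caller was used beyond the limit of 1 UMI of other-type markers in the gate, and leaving out cells with a Scrublet score over 0.25 was an alternative. Levels between cell classes are CPM, with 10 CPM added for log2 ratios, of genes with at least 20 CPM. For treatment, counts were summed per library and tested with edgeR's quasi-likelihood test (TMM, filterByExpr, batch term, Benjamini-Hochberg adjustment, threshold 0.05). Named genes are the 8 of smallest p of each sign with a mean of at least 20 CPM, genes of the rule, and αV and its partners. Some, not all, of the first 15 genes at each end of the level ratios are also named, and members of lists by p, level or overlap. Shares were compared by an exact permutation test. Differences within a batch used a prior count of 2. Versions were R 4.3.3, edgeR 4.0.16, limma 3.58.1, DESeq2 1.42.0, Python 3.11.15, scanpy 1.11.5 and scipy 1.17.1. The fits were also run on simulated counts with a fixed dispersion and no batch effect, which does not measure their power in these data. With 44 to 194 cells per library, genes under about 20 CPM rest on few UMIs.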

Additional observations from a re-analysis of the deposited data

How the results depend on the processing

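The difference in share kept its sign under every alternative run. It was -2.94 percentage points with the stricter cell filter, where the groups overlapped and p was 0.3 by the exact permutation test, and between -5.58 and -3.43 when 1 library was left out, where the smallest possible p is 0.2. The treatment comparison called 0 genes under DESeq2, limma voom, other size factors, no batch term, other choices of cells and with any 1 library left out. Without a filter on low counts it called 6 genes up and 10 down, among them Bmp4, Cybb, Fmo2, Fbln2 and 4 haemoglobin genes, and the cause was not tested. With the replicate number as a block it called 0 up and 1 down, Fmo2 at -2.66 (adjusted p = 0.0414, edgeR). Whether the numbers pair the libraries cannot be told. Correlations of same-numbered libraries were 0.28, 0.31 and -0.03, and those of differently numbered libraries lay between -0.38 and 0.03. No label ties libraries of the same number to a shared day or animal.

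The response difference called 2 genes up and 4 down when pericentral-type and periportal-type cells were the other class (Hba-a1 and Hba-a2 up; Alox5ap, Lgals3, Plac8 and S100a6 down). With 1 library left out it called 3 to 37 up and 1 to 84 down, the most without DMSO 3 and without CWHM-12 1, and the cause was not tested. Of the 16 genes of smallest p, none changed sign under the 13 to 18 alternatives that gave each a value. They were picked by p in these same libraries, and most alternatives reuse the same cells, so a kept sign is no independent support. In the cells chosen after thinning some were near 0, such as Usp1 at -0.10 and Ubn1 at 0.16. Among 331 list genes, 99 changed sign in the cells chosen after thinning, so single fold changes near 0 have no stable direction. The depth of 105346 to 440248 UMIs per library limits the tests to 4238 genes.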
